A study of Mus musculus with 12 samples.

Results

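The 34 genes of the unfolded protein response were followed in mouse skin and skin tumours given camphor white oil (CWO), an essential oil preparation, or its acetone vehicle. The 34 symbols were taken from a list of named sensors, transcription factors and target genes of the response, and each was found as a single entry in the deposited gene tables, out of 23235 symbols in all. RNA came from FVB/NJ mice and was sequenced in 12 libraries, 3 in each of 4 groups. The papilloma CWO and papilloma vehicle groups were pre-malignant tumours of mice shaved at 6 to 7 weeks of age, which then received a single dose of 400 nmol of the carcinogen DMBA and repeated applications of 10 nmol of the tumour promoter TPA. These tumours were treated for 6 weeks with 20% CWO or with acetone, and 4 tumours of similar size were pooled per mouse, from 3 mice per treatment. The epidermis CWO and epidermis vehicle groups came from shaved skin that received 400 µL of 20% CWO or acetone and was collected after 24 h, with no carcinogen. The age of those mice is not given in the labels. Ammonium thiocyanate was used to part epidermis from dermis, and of each treatment the 3 RNA samples of highest integrity went into sequencing. Nothing states that each epidermis library is a separate mouse, so p-values there measure the spread between samples, which may be technical. The questions the design poses are whether the oil changed these genes in either tissue, how tumour and epidermis differed, and whether the oil acted alike in both.

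The unfolded protein response is the programme by which a cell matches the folding capacity of its endoplasmic reticulum (ER) to the load of secreted and membrane proteins. Sensors in the ER membrane respond to unfolded proteins, either by slowing translation and raising the transcription factor ATF4, by splicing the Xbp1 mRNA, or by releasing the transcription factor ATF6. These factors raise chaperones, disulfide isomerases and the machinery of ER-associated degradation, and under lasting stress the factor CHOP (Ddit3). In skin, keratinocytes, sebocytes and infiltrating immune cells each carry a secretory or lipid-producing load of their own.

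Levels are FPKM, fragments per kilobase of transcript per 1e6 mapped fragments, so genes may be compared with each other per unit of length. Libraries held 11.1 M to 24.6 M fragments (M, 1e6) as recovered from the deposited confidence bounds. Keratinocyte markers were abundant in every library, summing to 27203 to 36430 FPKM in papilloma CWO, 29278 to 33785 in papilloma vehicle, 29115 to 30024 in epidermis CWO and 25368 to 32211 in epidermis vehicle. Skeletal muscle markers summed to 9.57 to 65.8, 52.1 to 402, 3253 to 4171 and 3903 to 19188 FPKM in the same order, and the high end belonged to epidermis vehicle libraries 1 and 2. Tests used limma with an intensity trend on log2(FPKM + 1), two-sided, with Benjamini-Hochberg adjustment over all genes tested in a comparison and a threshold of 0.05 on the adjusted p. Fold changes are on that scale, which understates the change of low genes. A gene was tested when it reached 1 FPKM in at least 3 of the libraries compared, which 33 of the 34 members did in each comparison. Derl3 did not.

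Among the members, calreticulin (Calr), a calcium-binding lectin chaperone, had the highest mean FPKM in each of the 4 groups, at 517 ± 35.6 in papilloma CWO, 526 ± 22.8 in papilloma vehicle, 272 ± 23.5 in epidermis CWO and 267 ± 43.7 in epidermis vehicle (SD, n = 3 each). Hspa5, the Hsp70-type chaperone BiP, ranked 2 among the members by mean FPKM in both papilloma groups and 6 in both epidermis groups. Xbp1, the transcription factor made active by splicing, ranked 9 in papilloma CWO and 6 in papilloma vehicle, and 2 in both epidermis groups. Asns, asparagine synthetase, ranked 12 in both papilloma groups, 24 in epidermis CWO and 26 in epidermis vehicle. Summed over the 34 members, FPKM came to 0.391% to 0.496% of all FPKM in papilloma CWO libraries, 0.437% to 0.489% in papilloma vehicle, 0.303% to 0.308% in epidermis CWO and 0.276% to 0.324% in epidermis vehicle. The papilloma and epidermis ranges of this share did not overlap, while the CWO and vehicle ranges overlapped within each tissue. Such a sum rests mostly on the most abundant members. The mean of log2(FPKM + 1) over the 34 was 5.11 to 5.34, 5.23 to 5.35, 5.05 to 5.17 and 4.87 to 5.08 in the same order. By that mean the papilloma CWO and epidermis CWO ranges overlapped.

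**Figure D1:**
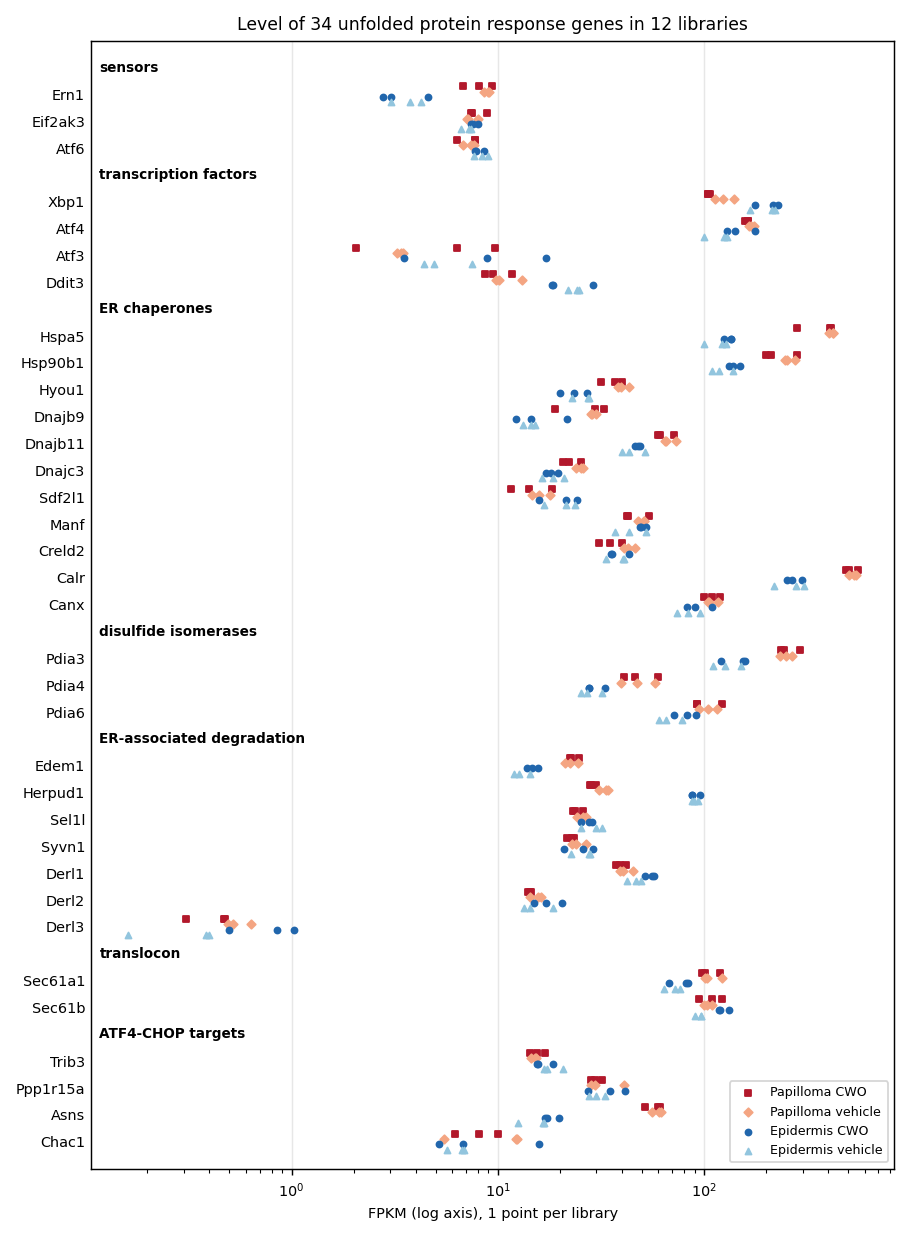
FPKM (log axis) of the 34 members in each of 12 libraries, 1 point per library, grouped by role, with papilloma CWO, papilloma vehicle, epidermis CWO and epidermis vehicle offset from top to bottom within each gene. Papilloma points of Hspa5, Asns and Ern1 lie to the right of the epidermis points, those of Herpud1 and Ddit3 to the left, and CWO and vehicle points of most members intermix.

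Members of the response differed between papilloma and epidermis in both directions. Under vehicle, 16 members were higher and 4 lower in papilloma than in epidermis. The higher members were mostly chaperones and disulfide isomerases, and the lower ones were Herpud1 and the transcription factors Ddit3, Xbp1 and Atf3. Under CWO, 13 were higher and 4 lower. The same tests called 70.2% of the 12790 genes tested under vehicle (31.8% higher, 38.3% lower) and 68.8% of the 12691 tested under CWO (29.1% higher, 39.7% lower), so a call in itself sets no member apart from other genes. The median log2 fold change of the 33 tested members was 0.37 under vehicle and 0.04 under CWO, against -0.07 and -0.12 over all genes tested. Rescaling the FPKM by median ratios moved the CWO median of all genes by 0.12 upward, and the 20 members called under vehicle and the 17 called under CWO each kept their call.

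The vehicle and CWO contrasts of tissue share no library. All 13 members called higher under CWO were also called higher under vehicle, where they made up 81.2% of the 16. For all genes the corresponding shares were 90.9% of those higher under CWO and 82.4% of those higher under vehicle. Herpud1, Xbp1 and Ddit3 were called lower under both treatments, which is 75.0% of each list of 4, against 86.7% and 89.1% for all genes called lower. The tumours differ from the epidermis in carcinogen and promoter treatment, in the duration of treatment and in how the tissue was collected, and these cannot be told apart from tissue. In bulk RNA, fewer cells of a type and less RNA per cell cannot be told apart either.

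**Figure D2:**
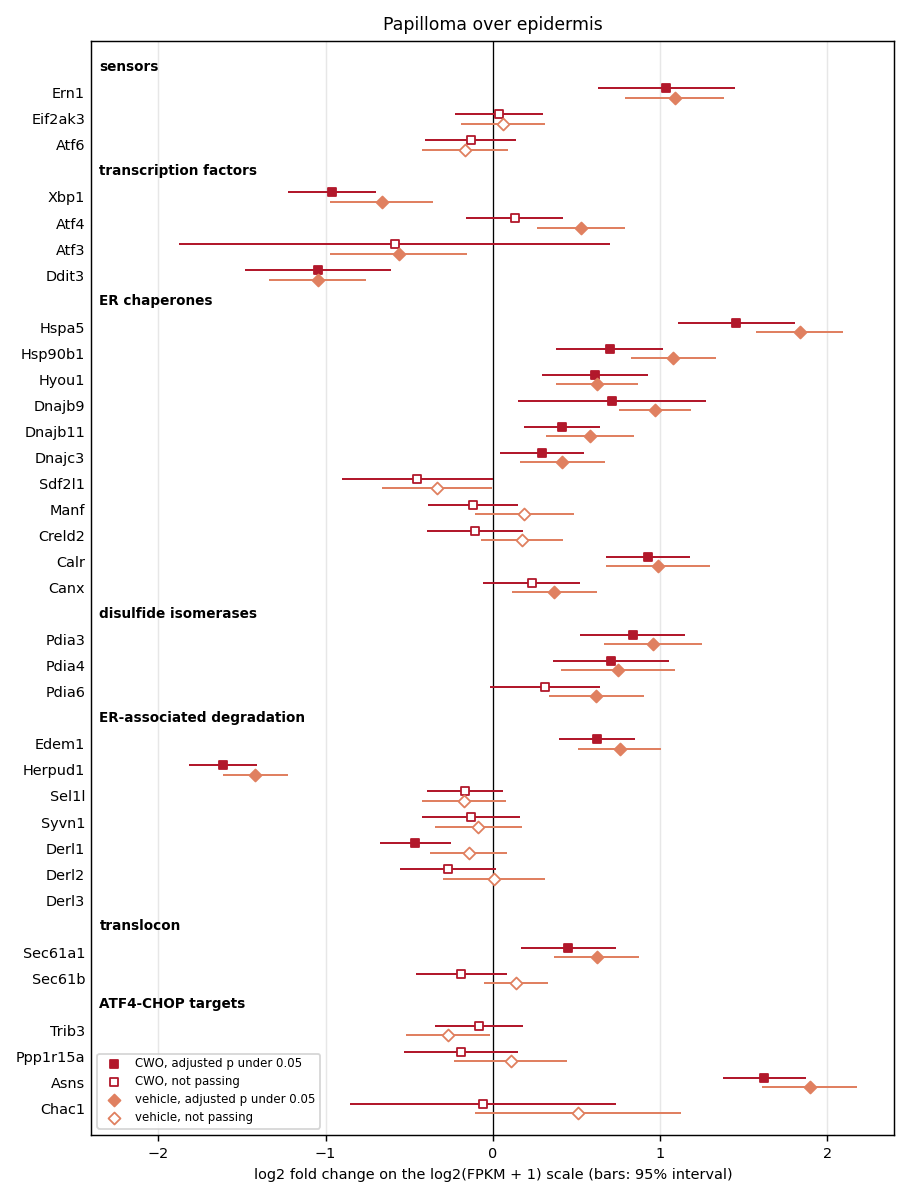
Log2 fold change of papilloma over epidermis for 33 members, under CWO (squares) and vehicle (diamonds), with 95% intervals. Filled symbols passed an adjusted p of 0.05 in limma. Chaperones and isomerases lie mostly right of 0, Herpud1, Ddit3 and Xbp1 left of it. Among the degradation genes Edem1 lies to the right under both treatments and Derl1 is filled to the left under CWO.

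Of 11 chaperones, 8 were higher in papilloma under vehicle and 7 under CWO, and none was lower. Hspa5 (mm9 chr2:34627610-34632049), which binds unfolded chains and restrains the sensors, had 421, 404 and 424 FPKM in vehicle papillomas, against 99.5, 122 and 128 FPKM in vehicle epidermis. Under CWO it had 406, 283 and 414 FPKM in papilloma, against 134, 135 and 125 FPKM in epidermis. Every papilloma library lay above every epidermis library, and papilloma CWO library 2 lay below the other papilloma libraries. The log2 fold change was 1.83 ± 0.11 under vehicle (SE, limma adjusted p = 3.52e-06) and 1.45 ± 0.15 under CWO (limma adjusted p = 5.36e-05), higher in 3 of 3 libraries each time.

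Hsp90b1, the ER member of the Hsp90 family, had 246, 275 and 253 FPKM in vehicle papillomas, against 110, 118 and 138 FPKM in vehicle epidermis. In CWO papillomas it had 211, 199 and 281 FPKM, against 132, 138 and 149 FPKM in CWO epidermis. The groups did not overlap under either treatment, and the log2 fold changes were 1.08 ± 0.11 and 0.70 ± 0.14 (SE, limma adjusted p = 5.04e-05 under vehicle and 0.00215 under CWO). Calr had 501, 546 and 532 FPKM in vehicle papillomas and 219, 304 and 278 FPKM in vehicle epidermis, while CWO papillomas had 507, 488 and 557 FPKM and CWO epidermis 298, 266 and 252 FPKM. Its log2 fold change was 0.99 ± 0.13 under vehicle and 0.93 ± 0.11 under CWO (SE, limma adjusted p = 0.000258 and 0.000107), with no overlap between tissues.

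Dnajb9, a J-domain co-chaperone that holds the sensor IRE1 inactive, had 28.3, 28.5 and 29.9 FPKM in vehicle papillomas, against 13.2, 15.2 and 14.5 FPKM in vehicle epidermis. CWO papillomas had 29.6, 18.9 and 32.6 FPKM, against 14.6, 12.3 and 21.7 FPKM in CWO epidermis, where the groups overlapped through papilloma library 2 and epidermis library 3. The log2 fold change was 0.97 ± 0.09 under vehicle (SE, limma adjusted p = 3.55e-05) and 0.71 ± 0.25 under CWO (limma adjusted p = 0.0300). The CWO call was lost without epidermis CWO library 1 (0.66) or 2 (0.54) and without papilloma CWO library 1 (0.63) or 3 (0.56), and also with no filter on low values (0.71).

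Smaller increases were found for Hyou1, the nucleotide exchange factor of BiP (0.62 under vehicle, 0.61 under CWO), for Dnajb11, a soluble J-domain co-chaperone (0.58 and 0.41), and for Dnajc3, a J-domain protein that also inhibits the kinase PERK (0.41 and 0.30). The Dnajc3 call under CWO was lost without epidermis CWO library 1 (0.29) or 2 (0.25) and without papilloma CWO library 1 (0.31) or 3 (0.22). Canx, the membrane-bound lectin chaperone calnexin, passed under vehicle (0.37 ± 0.11, SE, limma adjusted p = 0.0172) and not under CWO (0.23, adjusted p = 0.133), and its vehicle call was lost without epidermis vehicle library 1 (0.28) or papilloma vehicle library 2 (0.32). The ER stress-inducible proteins Manf, Creld2 and Sdf2l1 did not pass under either treatment. Their log2 fold changes were 0.19, 0.17 and -0.33 under vehicle and -0.12, -0.11 and -0.45 under CWO.

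Chaperone genes are textbook targets of ATF6 through the ER stress response element, which reads CCAAT, 9 bases of any kind and CCACG and was searched on both strands in RefSeq promoters of the GRCm38.p6 build, from 250 bases before to 50 bases after the start. Of the 34 members, 29 had a promoter in that table, and 9 of these held the element, which was found in 37 of 27025 symbols (0.137%). The 9 were Calr, Canx, Creld2, Derl3, Dnajc3, Hsp90b1, Hspa5, Pdia6 and Syvn1. The 4 sequences that follow are the 250 bases before the start, on the strand of the gene, of the members that held the element and had the smallest p for papilloma over epidermis under vehicle. Capitals mark the ends CCAAT and CCACG of the element, or CGTGG and ATTGG where it lies on the opposite strand. Hspa5 is chr2:34771840-34772089 on the plus strand, Hsp90b1 chr10:86705445-86705694 on the minus strand, Calr chr8:84846932-84847181 on the minus strand and Pdia6 chr12:17266339-17266588 on the plus strand.
Hspa5: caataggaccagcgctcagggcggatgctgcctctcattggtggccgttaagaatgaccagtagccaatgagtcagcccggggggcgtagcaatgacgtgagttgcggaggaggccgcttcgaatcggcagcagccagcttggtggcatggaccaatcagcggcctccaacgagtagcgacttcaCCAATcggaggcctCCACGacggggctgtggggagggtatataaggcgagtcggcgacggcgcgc
Hsp90b1: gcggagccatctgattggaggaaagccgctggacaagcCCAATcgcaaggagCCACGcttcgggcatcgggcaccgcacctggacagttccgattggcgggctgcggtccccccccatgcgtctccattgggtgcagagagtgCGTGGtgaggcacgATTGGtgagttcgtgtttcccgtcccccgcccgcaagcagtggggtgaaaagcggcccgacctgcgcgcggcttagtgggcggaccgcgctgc
Calr: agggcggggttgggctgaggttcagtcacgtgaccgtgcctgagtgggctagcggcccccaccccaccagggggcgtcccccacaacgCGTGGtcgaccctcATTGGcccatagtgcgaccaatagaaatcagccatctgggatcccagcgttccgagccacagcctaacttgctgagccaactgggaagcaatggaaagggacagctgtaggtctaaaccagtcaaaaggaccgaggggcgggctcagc
Pdia6: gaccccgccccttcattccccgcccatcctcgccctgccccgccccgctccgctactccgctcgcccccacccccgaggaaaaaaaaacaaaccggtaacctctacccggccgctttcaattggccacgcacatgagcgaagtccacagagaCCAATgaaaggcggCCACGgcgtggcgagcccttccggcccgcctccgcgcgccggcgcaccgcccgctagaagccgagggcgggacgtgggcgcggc

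The element began 65 bases before the start in Hspa5, 162 in Calr and 98 in Pdia6. Hsp90b1 held it at 212 bases on the gene's strand and again at 107 on the opposite strand. Of the 8 tested members with the element, 6 were higher and none lower in papilloma under vehicle, with a median log2 fold change of 0.52, and 4 were higher and none lower under CWO, with a median of 0.30. Of the 20 tested members with a promoter and no element, 8 were higher and 4 lower under vehicle (median 0.12) and 7 higher and 3 lower under CWO (median -0.07). Of all genes tested, 31.8% were higher and 38.3% lower under vehicle, and 29.1% and 39.7% under CWO. Apart from Pdia6 and Syvn1, the tested members with the element are chaperones, so this split is not independent of role. Asns and Herpud1, with changes of opposite sign, both lacked these letters in the window. The letters TGACGTGG, bound by XBP1 or ATF6, and TGATGNAAT, bound by ATF4 with C/EBP factors, were in none of the 29 member promoters, and in 0.714% and 1.08% of all symbols. These matches describe letters in a window and are not evidence of binding.

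**Figure D3:**
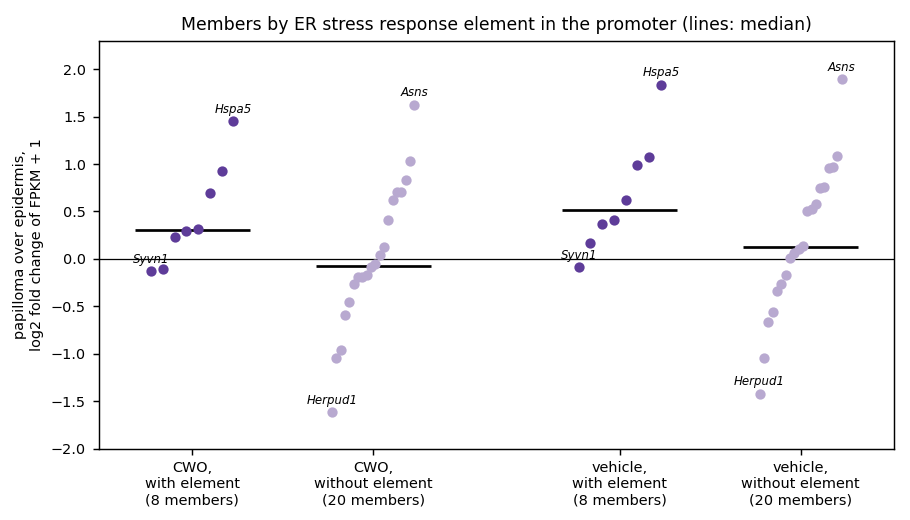
Log2 fold change of papilloma over epidermis for tested members with and without the ER stress response element in the promoter window, under CWO (left pair) and vehicle (right pair), 1 point per member, with the median as a line. Medians are 0.30 and -0.07 under CWO and 0.52 and 0.12 under vehicle, and the points of the paired columns overlap.

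The disulfide isomerases form and rearrange disulfide bonds in new proteins, and each of the 3 was higher in papilloma under vehicle, Pdia3 by 0.96 ± 0.13, Pdia4 by 0.75 ± 0.15 and Pdia6 by 0.62 ± 0.12 (log2, SE, limma adjusted p = 0.000227, 0.00202 and 0.00216). Pdia3, which works with calreticulin and calnexin, had 250, 265 and 234 FPKM in vehicle papillomas, against 110, 126 and 151 FPKM in vehicle epidermis. Under CWO it had 237, 244 and 292 FPKM in papilloma, against 154, 121 and 158 FPKM in epidermis, with a log2 fold change of 0.83 ± 0.14. Tissues did not overlap in either case. Under CWO Pdia4 also passed (0.71), and Pdia6 did not (0.31, limma adjusted p = 0.0813). In the translocon, the channel through which new chains enter the ER, the pore subunit Sec61a1 was higher in papilloma (0.62 under vehicle, 0.45 under CWO). The small subunit Sec61b did not pass (0.14 under vehicle, -0.19 under CWO).

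ER-associated degradation, which returns misfolded proteins to the cytosol for destruction, did not move in a single direction. Of its 6 tested members, 1 was higher and 1 lower under vehicle, and 1 higher and 2 lower under CWO. Herpud1 (mm9 chr8:96910400-96919258), a membrane protein of the HRD1 ligase complex, had 34.3, 33.5 and 31.0 FPKM in vehicle papillomas, against 86.9, 93.2 and 89.1 FPKM in vehicle epidermis. CWO papillomas had 29.9, 28.3 and 28.0 FPKM, against 87.4, 87.7 and 95.3 FPKM in CWO epidermis. Each papilloma library was below each epidermis library, and within a group the libraries differed little. The log2 fold change was -1.42 ± 0.08 under vehicle and -1.62 ± 0.09 under CWO (SE, limma adjusted p = 2.85e-06 and 1.69e-06).

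Edem1, a lectin that delivers mannose-trimmed glycoproteins to degradation, had 22.4, 24.4 and 21.2 FPKM in vehicle papillomas, against 11.95, 12.7 and 14.4 FPKM in vehicle epidermis. Under CWO it had 22.3, 22.6 and 24.7 FPKM in papilloma, against 13.9, 15.6 and 14.6 FPKM in epidermis. It was higher in every papilloma library, by 0.76 ± 0.11 and 0.62 ± 0.10 on the log2 scale (SE, limma adjusted p = 0.000323 and 0.000582). Derl1, a derlin of the retrotranslocation channel, was lower in papilloma under CWO (-0.46 ± 0.09, SE, limma adjusted p = 0.00218) and did not pass under vehicle (-0.15, adjusted p = 0.226). The ubiquitin ligase Syvn1, its adaptor Sel1l and the derlin Derl2 did not pass under either treatment. Their log2 fold changes under vehicle were -0.09, -0.17 and 0.01, and those under CWO -0.13, -0.17 and -0.27.

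Hspa5 and Herpud1 thus moved in opposite directions within the same libraries. The ratio of Hspa5 to Herpud1 FPKM was 10.0 to 14.8 in papilloma CWO libraries, 12.1 to 13.7 in papilloma vehicle, 1.32 to 1.54 in epidermis CWO and 1.145 to 1.44 in epidermis vehicle. A ratio within a library shows unequal change and does not depend on how libraries were scaled.

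Of the 3 sensors, Ern1 was higher in papilloma and the other two did not pass. Ern1, which encodes the kinase and endonuclease IRE1 that splices Xbp1, had 8.59, 8.92 and 9.11 FPKM in vehicle papillomas, against 3.77, 3.04 and 4.22 FPKM in vehicle epidermis. CWO papillomas had 9.34, 8.11 and 6.81 FPKM, against 3.05, 4.59 and 2.77 FPKM in CWO epidermis. Tissues did not overlap, and the log2 fold change was 1.09 ± 0.13 under vehicle and 1.03 ± 0.18 under CWO (SE, limma adjusted p = 0.000119 and 0.000946).

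Eif2ak3, the translation-slowing kinase PERK, had 7.14, 8.05 and 7.11 FPKM in vehicle papillomas and 7.24, 6.62 and 7.39 FPKM in vehicle epidermis. With CWO it had 7.46, 7.40 and 8.89 FPKM in papilloma and 7.44, 8.00 and 7.58 FPKM in epidermis. The groups overlapped, with log2 fold changes of 0.06 (95% interval -0.19 to 0.31) and 0.04 (-0.22 to 0.30). Atf6, the factor that is cut free from the membrane, had 6.78, 7.67 and 7.45 FPKM in vehicle papillomas and 7.66, 9.005 and 8.34 FPKM in vehicle epidermis. CWO papillomas had 7.74, 6.31 and 7.78 FPKM and CWO epidermis 7.81, 8.55 and 7.79 FPKM. The log2 fold changes were -0.17 (95% interval -0.43 to 0.09) and -0.13 (-0.41 to 0.14), so a difference of the size seen for Ern1 lies outside both intervals.

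The transcription factors did not move together. Of the 4, 3 were lower and 1 higher in papilloma under vehicle, and 2 were lower and 0 higher under CWO. Of all genes tested, 38.3% were lower under vehicle and 39.7% under CWO. Xbp1 had 113, 140 and 123 FPKM in vehicle papillomas, against 167, 214 and 221 FPKM in vehicle epidermis. CWO papillomas had 107, 104 and 104 FPKM, against 217, 176 and 228 FPKM in CWO epidermis. Tissues did not overlap, and the log2 fold change was -0.67 ± 0.13 under vehicle and -0.96 ± 0.11 under CWO (SE, limma adjusted p = 0.00225 and 0.000113). Gene-level FPKM do not separate spliced from unspliced Xbp1 mRNA.

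Ddit3, the stress factor CHOP, had 9.84, 10.1 and 13.1 FPKM in vehicle papillomas, against 24.9, 21.998 and 24.2 FPKM in vehicle epidermis. CWO papillomas had 8.64, 11.7 and 9.53 FPKM, against 18.3, 28.9 and 18.5 FPKM in CWO epidermis. Each papilloma library was below each epidermis library, with log2 fold changes of -1.05 ± 0.13 and -1.04 ± 0.19 (SE, limma adjusted p = 0.000131 and 0.00129). Atf4, the factor whose translation rises when PERK is active, had 164, 176 and 169 FPKM in vehicle papillomas, against 125, 99.8 and 129 FPKM in vehicle epidermis, and was higher by 0.53 ± 0.11 (log2, SE, limma adjusted p = 0.00326). Under CWO it had 164, 163 and 158 FPKM in papilloma and 129, 177 and 141 FPKM in epidermis. These CWO groups overlapped through epidermis library 2, and the difference of 0.13 did not pass (limma adjusted p = 0.388).

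Atf3, a stress-induced repressor, was low and uneven. It had 3.24, 3.41 and 3.48 FPKM in vehicle papillomas, against 7.498, 4.37 and 4.91 FPKM in vehicle epidermis, with a log2 fold change of -0.56 ± 0.18 (SE, limma adjusted p = 0.0208). That call was lost without papilloma vehicle library 1 (-0.54) and when the 12 libraries were fitted together, and the value shrank to -0.36 without epidermis vehicle library 1. With CWO it had 6.33, 2.05 and 9.64 FPKM in papilloma and 3.51, 17.2 and 8.84 FPKM in epidermis. Both CWO groups spread several-fold and overlapped, with a log2 fold change of -0.59 and a 95% interval of -1.88 to 0.70.

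Among the 4 genes downstream of ATF4 and CHOP, Asns alone passed. Asns (mm9 chr6:7625171-7643182) had 61.6, 60.4 and 55.7 FPKM in vehicle papillomas, against 12.6, 16.8 and 16.6 FPKM in vehicle epidermis. CWO papillomas had 51.9, 60.1 and 61.1 FPKM, against 19.8, 17.0 and 17.4 FPKM in CWO epidermis. Tissues were far apart in both cases, and the log2 fold change was 1.89 ± 0.12 under vehicle and 1.62 ± 0.11 under CWO (SE, limma adjusted p = 4.60e-06 and 4.61e-06). Trib3, a pseudokinase that restrains ATF4, had log2 fold changes of -0.27 under vehicle (limma adjusted p = 0.0551) and -0.08 under CWO. Ppp1r15a, the phosphatase subunit that restores translation, had 0.11 and -0.19.

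Chac1, a glutathione-degrading enzyme, had 5.50, 12.4 and 12.3 FPKM in vehicle papillomas and 6.87, 5.67 and 6.68 FPKM in vehicle epidermis. With CWO it had 6.18, 8.07 and 10.1 FPKM in papilloma and 6.80, 15.9 and 5.16 FPKM in epidermis. Papilloma vehicle library 1 lay below the 3 epidermis vehicle libraries, and without it the vehicle difference passed at 0.86, against 0.51 with it (limma adjusted p = 0.122).

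**Figure D4:**
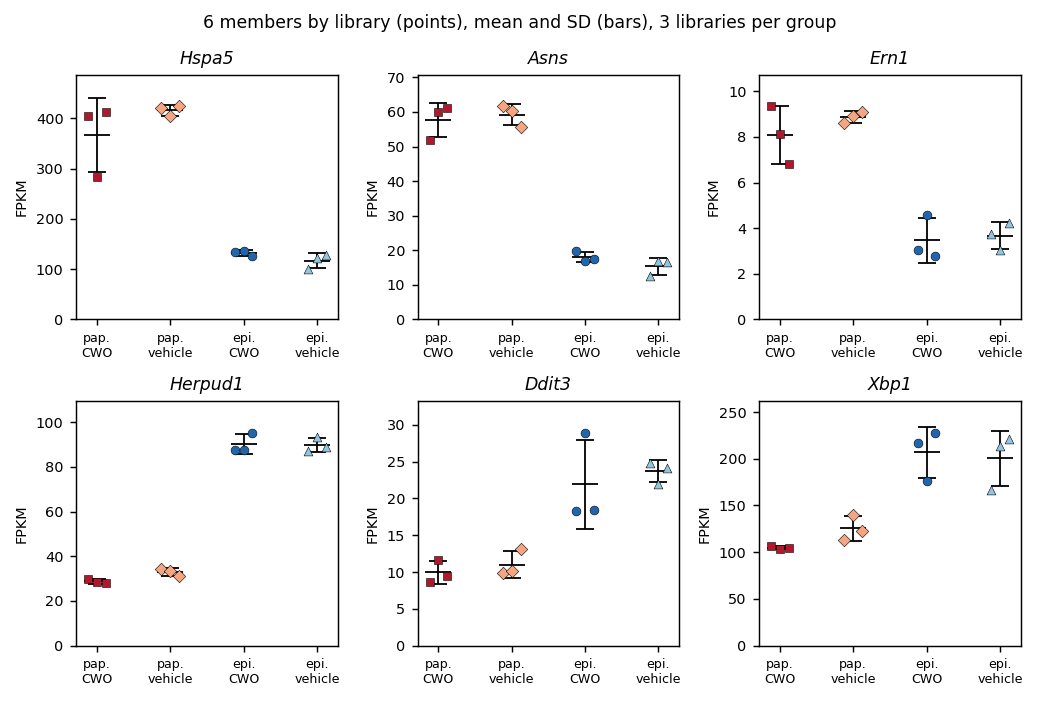
FPKM (linear axes from 0) of Hspa5, Asns, Ern1, Herpud1, Ddit3 and Xbp1 in each library, with group means and SD as bars, 3 libraries per group. For Hspa5, Asns and Ern1 papilloma libraries exceed epidermis libraries, and for Herpud1, Ddit3 and Xbp1 the reverse holds. CWO and vehicle libraries of a tissue overlap except for Herpud1 and Xbp1 in papilloma (CWO lower) and Asns in epidermis (CWO higher).

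Groups that did not overlap were counted as well. Under vehicle, 18 members lay wholly higher in papilloma and 5 wholly lower, where 74.5% of all genes tested did not overlap (33.8% higher, 40.7% lower). Under CWO the counts were 13 and 6, where 74.0% of all genes did not overlap (31.4% higher, 42.6% lower).

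Markers of other cell types moved with tissue. The 4 T cell markers summed to 1.27 to 3.41 FPKM in papilloma CWO, 3.25 to 6.85 in papilloma vehicle, 82.8 to 109 in epidermis CWO and 101 to 125 in epidermis vehicle, and 4 of 4 were lower in papilloma under both treatments. The 9 sebocyte markers summed to 120 to 189, 126 to 370, 2760 to 3206 and 2212 to 2525 FPKM in the same order, and 9 of 9 were lower. Of 8 fibroblast markers, 7 were higher in papilloma under both treatments, with sums of 382 to 584, 354 to 515, 12.4 to 24.1 and 29.1 to 71.7 FPKM. The 12 skeletal muscle markers were all lower in papilloma.

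The 8 myeloid markers summed to 5434 to 9359 FPKM in papilloma CWO, 5561 to 8552 in papilloma vehicle, 174 to 263 in epidermis CWO and 148 to 200 in epidermis vehicle. Such a sum rests mostly on the most abundant markers. The mean of log2(FPKM + 1) over the 8 was 4.27 to 4.38, 4.45 to 4.59, 3.41 to 3.63 and 3.39 to 3.56 in the same order. The list median log2 fold change was 0.87 under vehicle and 0.65 under CWO, and 5 were higher and 3 lower in papilloma under both treatments. The 3 tested endothelial markers were higher under both, with sums over 4 markers of 18.2 to 26.4, 20.2 to 24.7, 2.77 to 6.17 and 2.18 to 9.76 FPKM in the same order. Of 9 keratinocyte markers, 2 were higher and 4 lower in papilloma under vehicle, and 1 higher and 5 lower under CWO. Plasma cells carry a large secretory load, and their 6 markers summed to 436 to 481 FPKM in papilloma CWO, 443 to 452 in papilloma vehicle, 407 to 462 in epidermis CWO and 358 to 467 in epidermis vehicle. Most of that sum was Sdc1, which keratinocytes also express, with means of 426 ± 28.6, 420 ± 7.36, 406 ± 35.9 and 407 ± 57.1 FPKM in the same order (SD, n = 3 each). Of the 2 plasma cell markers tested, Sdc1 and Prdm1, both were above 0 for papilloma over epidermis, and Prdm1 passed under vehicle (0.54 ± 0.16, log2, SE, limma adjusted p = 0.0159) and not under CWO (0.32, adjusted p = 0.269). Of the untested ones, the J chain gene Igj was at most 0.796 FPKM and Tnfrsf17 at most 0.120 FPKM in any library. The part of these cell types in the member differences was not tested.

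When the mean log2 level of the muscle markers was added to the fit, a choice made after seeing the data, 2 members kept a call under vehicle (Herpud1 and Asns) and 0 under CWO. That mean is below its epidermis range in every papilloma library, so this term and tissue cannot be told apart. Without epidermis vehicle libraries 1 and 2, the muscle-rich ones, the epidermis vehicle group is 1 library, which is assumed to vary as the papilloma libraries do. In that fit the log2 fold change under vehicle was 1.69 for Hspa5, 1.78 for Asns and -1.41 for Herpud1. Most of the called members shrank. Among them, Pdia4 (0.57), Dnajc3 (0.24) and Canx (0.18) shrank from 0.75, 0.41 and 0.37, and Dnajb11 (0.38) and Pdia6 (0.41) from 0.58 and 0.62. Xbp1 (-0.82) and Ddit3 (-1.08) grew in size from -0.67 and -1.05.

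In epidermis, no member passed the test for CWO over vehicle 24 h after a single application. None of 33 was called by limma, where 1.99% of the 12289 genes tested were called (1.81% higher, 0.179% lower), and 2 members (6.06%) had an unadjusted p under 0.05, against 14.7% of all genes tested. By limma-voom on recovered fragments none was called either. The members' median log2 fold change was 0.13, with 23 positive and 10 negative, against a median of 0.02 and 55.0% positive over all genes. Sec61b had 132, 119 and 119 FPKM in CWO epidermis, against 90.4, 96.1 and 96.5 FPKM in vehicle epidermis, and each CWO library was above each vehicle library. Its log2 fold change was 0.38 ± 0.10 (SE, limma adjusted p = 0.107), and it was the single member called (by the same 0.38) when the 12 libraries were fitted together.

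Derl1 had 57.3, 51.9 and 55.6 FPKM in CWO epidermis, against 42.1, 46.5 and 49.7 FPKM in vehicle epidermis (0.25 ± 0.11, SE, limma adjusted p = 0.322). Atf4 had 129, 177 and 141 FPKM in CWO epidermis, against 125, 99.8 and 129 FPKM in vehicle epidermis (0.33 ± 0.15, SE, limma adjusted p = 0.371), and its lowest CWO library lay just above its highest vehicle library. Besides these 3, Asns and Eif2ak3 were higher in each CWO library, which makes 5 members, where 18.7% of all genes did not overlap and 12.1% lay wholly higher. No member lay wholly lower, where 6.67% of all genes did. The 95% intervals bound what could have been missed: Hspa5 lay between -0.09 and 0.46, Xbp1 between -0.30 and 0.39, Ddit3 between -0.54 and 0.27, and Herpud1 between -0.21 and 0.22. Atf3 (-0.49 to 1.54) and Chac1 (-0.42 to 1.09) were far less well bounded, since epidermis CWO library 2 held 17.2 and 15.9 FPKM of them.

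Of the 12 skeletal muscle markers none passed for CWO over vehicle by limma, with 12 of 12 below 0 (median log2 fold change -1.39) and summed levels that overlapped. Of 5 tested fibroblast markers 2 were lower with CWO (list median -1.18), and of 9 sebocyte markers 1 was higher and 1 lower. The part of these cell types in the result was not tested. The authors' deposited epidermis table lists 176 genes, and it holds 0 of the 34 members.

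In papilloma, no member passed the test after 6 weeks of CWO. None of 33 was called by limma, where 0 of the 12144 genes tested were called (0%), and none by limma-voom. An unadjusted p under 0.05 was found for 3 members (9.09%) and for 306 of all genes (2.52%). The median log2 fold change was -0.08, with 8 members positive and 25 negative, against -0.01 and 47.7% positive over all genes.

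Xbp1 (-0.25 ± 0.09), Creld2 (-0.29 ± 0.10) and Herpud1 (-0.19 ± 0.07) had the smallest p (log2, SE, limma adjusted p = 1.00 for each). Creld2 had 35.04, 31.1 and 40.0 FPKM in CWO papillomas, against 42.7, 46.2 and 40.8 FPKM in vehicle papillomas. These 3 and Atf4 lay lower in each CWO library than in any vehicle library, which is 4 members, where 6.60% of all genes did not overlap, 3.58% lower and 3.02% higher. In the authors' deposited table of papillomas, Xbp1 had a log2 ratio of -0.25 (p = 0.0337) and Creld2 of -0.28 (p = 0.0391). The lowest adjusted p of a member in the authors' deposited table was 1.00. The intervals of the present fit were narrow for most members: Hspa5 lay between -0.54 and 0.14, Ddit3 between -0.46 and 0.19, Calr between -0.23 and 0.17 and Ern1 between -0.39 and 0.13, while Atf3 ran from -0.42 to 1.43.

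**Figure D5:**
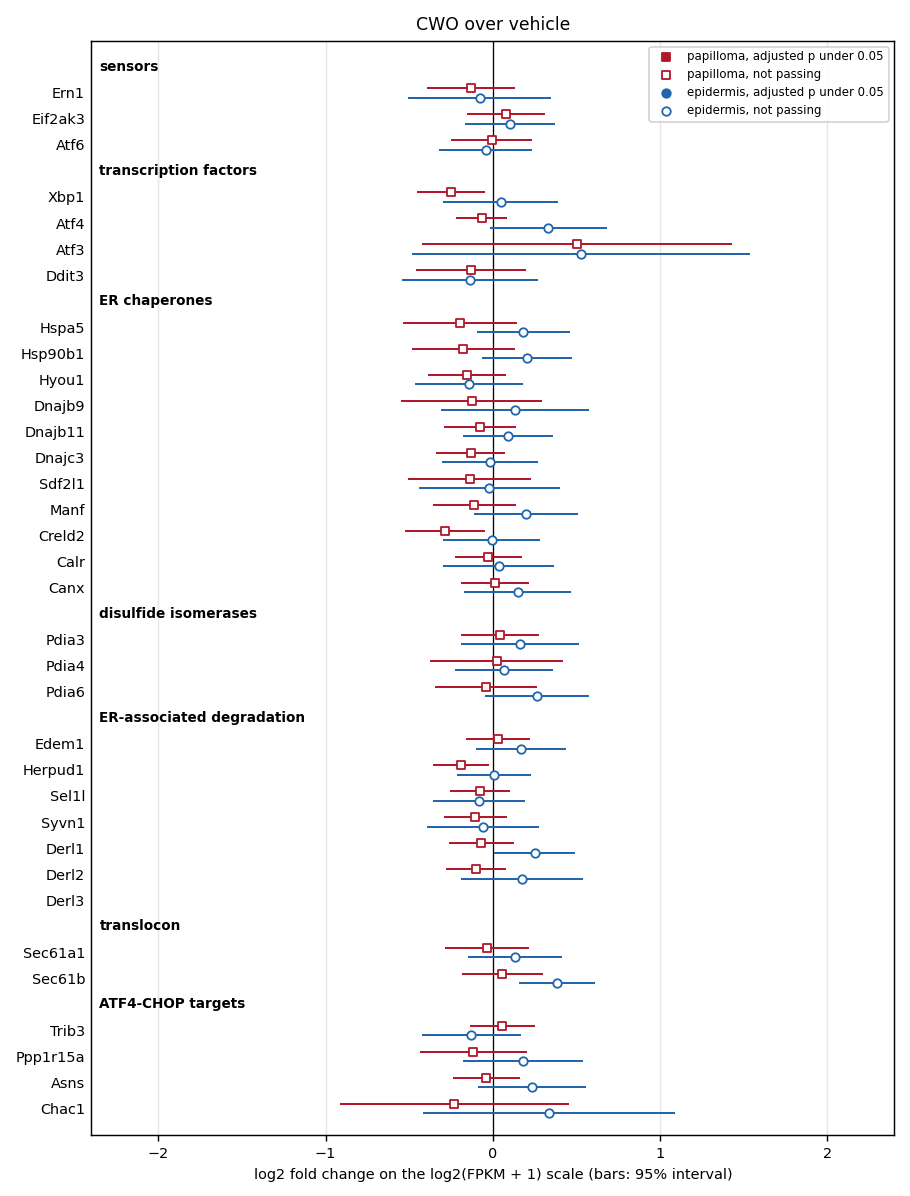
Log2 fold change of CWO over vehicle for 33 members in papilloma (squares) and epidermis (circles), with 95% intervals. No symbol is filled, since no member passed an adjusted p of 0.05, and the intervals of Atf3 and Chac1 are the widest shown.

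Whether the oil's effect differed between the tissues was tested directly over the 12 libraries, as the effect in papilloma minus the effect in epidermis. This contrast uses the same libraries as those above. None of 33 members passed (limma), where 0.743% of 13186 genes did (0.0303% higher, 0.713% lower), and limma-voom called none. An unadjusted p under 0.05 was found for 3 members (9.09%), near the 9.90% of all genes tested. They were Derl1 (-0.32 ± 0.13, limma adjusted p = 0.417), Sec61b (-0.33 ± 0.14, adjusted p = 0.452) and Atf4 (-0.40 ± 0.17, adjusted p = 0.471, SE). The difference was negative for 29 of 33 members, with a median of -0.17, where the median over all genes was -0.04 and 42.4% of genes were positive.

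Derl3, the derlin outside the tests, had 0.469, 0.474 and 0.308 FPKM in CWO papillomas and 0.520, 0.490 and 0.637 FPKM in vehicle papillomas. In epidermis it had 0.850, 1.03 and 0.499 FPKM with CWO and 0.386, 0.161 and 0.400 FPKM with vehicle. For CWO against vehicle in each tissue, and for papilloma against epidermis under each treatment, the 3 libraries of the one group lay wholly apart from those of the other. Papilloma was higher than epidermis under vehicle and lower under CWO. Of all genes tested, 18.7% did not overlap for CWO in epidermis, 6.60% for CWO in papilloma, 74.5% for tissue under vehicle and 74.0% under CWO. Derl3 rests on few fragments, down to 2 in epidermis vehicle and 6 in papilloma CWO. The exact permutation test gave a two-sided p of 0.1 in each of these 4 comparisons, the smallest that 3 against 3 allows, so it could not pass 0.05.

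Other genes of the pathways around the response were read from 3 further lists. For CWO over vehicle, 1.81% of all genes tested were called higher in epidermis and 0% in papilloma. Of 39 other ER genes in the files, 37 were tested, and 1 was called higher in epidermis and 0 in papilloma. That gene was Ero1l, the oxidase that recharges the disulfide isomerases, with 31.2, 30.5 and 26.0 FPKM in CWO epidermis, against 11.1, 11.4 and 13.6 FPKM in vehicle epidermis (log2 fold change 1.21 ± 0.13, SE, limma adjusted p = 0.00550). The call was lost without the muscle-rich vehicle libraries 1 and 2, which leaves 1 vehicle library (1.04), and with the muscle term (1.05). Between tissues under vehicle, 18 of 38 tested were higher and 11 lower in papilloma, with a list median of 0.18. Sec24d, a coat protein of vesicles leaving the ER (2.00), Ero1l (1.69) and the translocon-associated Ssr3 (1.29) led the higher ones, and the translocation protein Sec62 (-1.02), the membrane-bound factor Creb3 (-0.78) and the BiP exchange factor Sil1 (-0.77) the lower ones. Under CWO 14 were higher and 9 lower, with a list median of 0.00.

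Of 28 genes of amino acid supply and the integrated stress response, which share ATF4 with the unfolded protein response, none passed for CWO in either tissue by limma. The serine synthesis enzyme Psat1 came nearest in epidermis, with 146, 127 and 112 FPKM under CWO, against 74.9, 86.8 and 86.0 FPKM under vehicle (0.62 ± 0.13, SE, limma adjusted p = 0.0524). Between tissues under vehicle, 15 of 27 tested were higher in papilloma and 3 lower (list median 0.48), and under CWO 12 and 5 (list median 0.17). The cationic amino acid transporter Slc7a1 (2.20), the asparaginyl-tRNA synthetase Nars (1.62) and the mitochondrial serine enzyme Shmt2 (1.28) were higher under vehicle, and the stress protein Nupr1 (-2.60), the factor Cebpb (-0.65) and Psph (-0.62), also of serine synthesis, were lower.

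The 18 genes of the heat shock list are mostly cytosolic chaperones that answer to another factor, Hsf1, itself on the list. Hspd1 and Hspe1 among them are mitochondrial. This list also showed 0 calls for CWO in either tissue by limma. Between tissues under vehicle, 6 were higher in papilloma and 9 lower (list median -0.36), and under CWO 6 and 8 (list median -0.27). The counts of the 3 lists stand beside 31.8% higher and 38.3% lower of all genes tested under vehicle. Under CWO these shares were 29.1% and 39.7%. The small heat shock genes Hspb8 (-4.14), Hspb1 (-2.31) and Cryab (-2.98) were lower under vehicle, and Bag3 (0.93), Hspd1 (0.81) and Hspa8 (0.89) higher. Hspb8 and Cryab are also abundant in skeletal muscle, whose markers were lower in papilloma as given above. The part of muscle in the difference of these genes was not tested.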

How the data were processed

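RNA of 12 libraries was sequenced, 3 per group. Per the submitters' processing notes, bcl2fastq 1.8.4, TopHat2 2.0.4, Cufflinks 2.0.2, DESeq and the mouse build mm9 were used. The annotation, and whether strand was kept, are not given in the sources used here. The authors deposited gene FPKM with Cufflinks bounds for each library, per the file headers. The authors' deposited tables of CWO against vehicle hold normalised mean counts (a signal per group), a ratio, its log2 value and p-values from DESeq, per the file headers. Where Cufflinks gave a status that was not OK, the FPKM was treated as missing, which touched no member, and 248 symbols with more than 1 entry were summed.

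Differences were tested with limma 3.58.1 in R 4.3.3 on log2(FPKM + 1), with an intensity trend, within the libraries of each comparison. A gene needed FPKM of at least 1 in 3 libraries and at least 2 values per group, or 1 where an alternative left a group with 1 library, and genes of short RNAs were not tested. Other steps used Python 3.11.15, pandas 2.3.3 and SciPy 1.17.1, and the fit was tested on simulated data. Fragments per gene were recovered from the deposited bounds, which gave 11.1 M to 24.6 M per library. The lowest fragment count of a tested member in any library was 61.0, for Atf3, and Derl3 went down to 2. Precision rests on 3 libraries per group.

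The members and the other lists were chosen with earlier results of these data known. Named members are those called in a comparison, up to 8 by smallest p with every library's value, a panel of 11 sensors, factors and targets, and the remaining members by fold change. In each other list up to 3 genes per direction with the smallest p are named. Promoters shown are those of called members that hold a searched motif, up to 4 by smallest p. Alternatives were pseudocounts of 0.1 and 3, no filter, a minimum of 5 FPKM, median-ratio scaling, a replicate block, a fit of the 12 libraries together, values of any status, limma-voom on recovered fragments and leaving out each library. A skeletal muscle term, and leaving out epidermis vehicle libraries 1 and 2 together, were added after seeing the data.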

Additional observations from a re-analysis of the deposited data

Results flagged for a closer look

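Ero1l, the ER oxidase, is no member of the list but was the gene of the wider ER list whose response to CWO differed between the tissues by a test of the difference itself. It had 35.3, 34.7 and 36.4 FPKM in CWO papillomas, against 45.8, 36.03 and 41.9 FPKM in vehicle papillomas. It had 31.2, 30.5 and 26.0 FPKM in CWO epidermis, against 11.1, 11.4 and 13.6 FPKM in vehicle epidermis. The effect in papilloma minus that in epidermis was -1.42 ± 0.16 on the log2 scale (SE, limma adjusted p = 0.00168), and it kept its call in 22 of 22 alternatives. None of 12 skeletal muscle markers passed between the epidermis groups by limma, though vehicle libraries 1 and 2 held more of them than the other epidermis libraries. With the muscle term the difference was -1.44, and without those libraries, which leaves 1 epidermis vehicle library, it was -1.25. The effect in epidermis alone lost its call with the muscle term (1.05, from 1.21), and was 1.04 without those libraries. The part of muscle in this was not tested further.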

How the results depend on the processing

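The number of members called for CWO was 0 in papilloma and in the difference between tissues under each alternative run. In epidermis it was 0 except for 1, Sec61b, with the 12 libraries fitted together. Members called between tissues numbered 19 to 21 under vehicle and 15 to 19 under CWO when each library was left out in turn. Of all genes, the same fits called 7595 to 8386 under vehicle, of 12170 to 12204 tested. Under CWO they called 7345 to 7971 of 11960 to 12163. With the muscle term the members called fell to 2 under vehicle and 0 under CWO. That term separates the tissues completely, and with it 980 and 1 of all genes were called. With the replicate number as a block, 0, 0, 20, 16 and 0 members were called, for CWO in epidermis, CWO in papilloma, tissue under vehicle, tissue under CWO and the difference, and Dnajc3 under CWO (0.30) lost its call. Of all genes, the block fits called 54, 4, 8539, 8408 and 25 in the same order. Same-numbered libraries did not deviate together (r from -0.44 to 0.26), so the numbers were not taken to pair the samples.

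Over all genes, the 245 called for CWO in epidermis became 44 with no filter, 54 with the replicate block, 655 with the 12 libraries together, 162 by limma-voom, 9 with the muscle term and 12 without vehicle libraries 1 and 2, which leaves 1 vehicle library, so that 0 members called there says little, and ran between 64 and 683 when 1 library was left out (683 without vehicle library 3). The 98 called for the difference became 63 with no filter, 25 with the block, 49 by limma-voom and 17 without those vehicle libraries, and ran between 34 and 328. The causes were not tested.

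The direction turned in the following cases, 7 of them members called for tissue under CWO. When each library was left out in turn, values for CWO in epidermis ran from -0.079 to 0.16 for Xbp1, -0.034 to 0.033 for Herpud1, -0.092 to 0.64 for Chac1, -0.25 to 0.034 for Ern1 and -0.097 to 0.0071 for Atf6. For CWO in papilloma Atf6 ran from -0.054 to 0.078. For tissue under CWO Chac1 ran from -0.36 to 0.37 and Eif2ak3 from -0.040 to 0.077. With the muscle term, Xbp1 became -0.014 for CWO in epidermis, Chac1 0.049 for CWO in papilloma and Atf6 0.047 for tissue under vehicle. For tissue under CWO that term turned Hspa5 to -0.62, Hsp90b1 to -0.31, Hyou1 to -0.62, Dnajb11 to -0.046, Sec61a1 to -0.26, Dnajb9 to -1.57, Dnajc3 to -0.28, Atf4 to -0.095 and Eif2ak3 to -0.45. Rescaling turned Herpud1 for CWO in epidermis to -0.025 and Chac1 for tissue under CWO to 0.066. By limma-voom Herpud1 for CWO in epidermis was -0.027, and without vehicle libraries 1 and 2 Xbp1 there was -0.10.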
